A study of Mus musculus with 6 samples.

Results

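Tenm2, Cbln1, Calcb, Dscaml1, Flrt3, Gjb2, Myo5b, Stxbp6, Gprin2 and Aard had higher signal on Gata3-/- than on Gata3+/- arrays. On Gata3+/- arrays the brightest probe set of most was low or under the floor, whereas that of Flrt3 read 5.24 to 7.23. These 10 are among the 18193 genes named on the array. They were selected on their levels in these same 6 arrays, namely off or near the floor on Gata3+/- arrays and on in Gata3-/- arrays, so their levels and differences are a description, without a test. The series compared mouse cells grown from embryonic stem cells and labelled as T-cell progenitors, with 3 arrays labelled Gata3-/-, meaning no intact copy of Gata3, and 3 labelled Gata3+/-, meaning 1 intact copy. Both genotypes were grown on stromal cells of the OP9 and OP9-DL1 lines, of which OP9-DL1 carries a Notch ligand. The cytokines IL-7 and Flt3L were added, and the cells were then sorted by flow cytometry. No source used here gives the disrupted part of Gata3, the sort markers or the number of stem cell clones, and nothing says that the biological replicates were separate cultures. GATA3 is a zinc finger transcription factor required for early T-cell development.

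Most of the 10 genes are better known from neurons or epithelia than from blood cells. Teneurins and FLRT proteins are surface adhesion proteins that bind latrophilin receptors on a neighbouring cell, and cerebellins are secreted proteins that bridge neurexins to delta glutamate receptors at synapses. Connexins form gap junctions between adjoining cells, and class V myosins carry vesicles along actin. Markers that define neurons and epithelia were mostly not measurable on these arrays. Of 21 neural markers, 16 never reached the floor on any array, among them Tubb3, Map2, Sox2 and Gfap, and of 22 epithelial markers 13 never did, among them Krt19, Cldn4 and Esrp1. The genes are therefore not assigned to a neural or epithelial cell type.

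Levels are log2 GC-RMA intensities, and differences are Gata3-/- minus Gata3+/-. A log2 value of 4 was taken as the floor, below which probe sets carry little information. On each array 19977 to 20124 probe sets reached it. The probe set of the targeted gene stood at 5.87, 6.44 and 5.48 on Gata3-/- arrays and 5.39, 6.40 and 5.86 on Gata3+/- arrays (limma difference 0.05, 95% interval -0.80 to 0.89). Whether this probe set lies inside the disrupted part of the gene is not known here, so its levels do not settle whether the genotype labels hold, and genotypes are given as labelled. The blood cell marker Ptprc stood between 14.33 and 14.51 on all 6 arrays, whereas 12 of 13 named T-lineage markers, Cd3e, Ptcra and Bcl11b among them, stayed under the floor on all 6. The mean level of 14 stromal genes was lowest on array 2 of both genotypes. It was 8.46, 7.54 and 9.33 on Gata3-/- arrays 1, 2 and 3, and 9.29, 7.91 and 9.46 on Gata3+/- arrays 1, 2 and 3. Because a sorted population was measured in bulk, more cells of a type and more RNA per cell cannot be told apart.

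**Figure D1:**
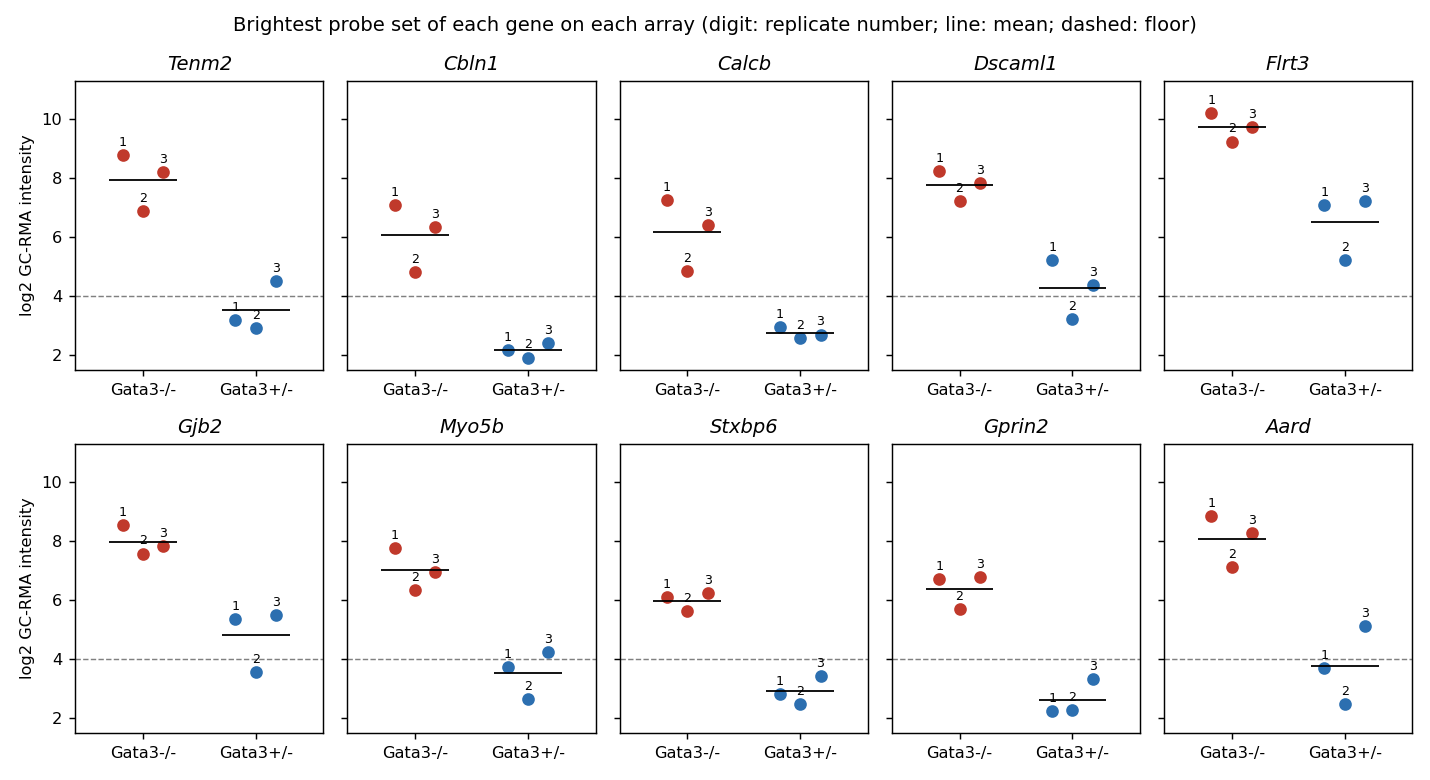
Levels of the brightest probe set of each of the 10 genes, as log2 GC-RMA intensity, on 3 Gata3-/- arrays (left, red) and 3 Gata3+/- arrays (right, blue). Digits are replicate numbers, lines are means and the dashed line is the floor at 4. Every Gata3-/- point lies above every Gata3+/- point of the same gene, and array 2 is lowest on the Gata3-/- side of all 10 panels.

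On all 3 Gata3-/- arrays the brightest probe set of all 10 genes was over the floor, the lowest value being 4.83. On the Gata3+/- arrays the same probe sets were under the floor on all 3 arrays for 4 genes, on 2 for 3 genes, on 1 for 2 genes, and on none for Flrt3. Among these probe sets the Gata3+/- values closest to the floor were 3.73 just under it and 4.23 just over it, both of Myo5b. The fitted differences ran from 3.06 to 4.41 with a median of 3.49, against a median of -0.02 over all 10302 genes tested. The gap between the lowest Gata3-/- array and the highest Gata3+/- array was 1.89 to 2.40. All 10 were called higher by limma after Benjamini-Hochberg adjustment, where 5.27% of all genes tested were called, 2.86% higher and 2.41% lower. For all 10, every Gata3-/- array lay above every Gata3+/- array, as was so for 16.9% of all genes tested. Because these values chose the genes, neither count adds support. Leaving out any 1 array left 0 of the 10 called with limma (10 at an unadjusted p under 0.05) and 0 to 9 probe sets called in all, against 878 with all 6 arrays. In those fits 3578 to 4622 of the 20102 probe sets tested stood at an unadjusted limma p under 0.05. With all 6 arrays 2663 of the 10302 genes tested did. Differences of 3 or more were found for 30 genes (0.291%) and of -3 or less for 2 genes (0.0194%), and the 10 genes rank between 2 and 27 by difference.

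**Figure D2:**
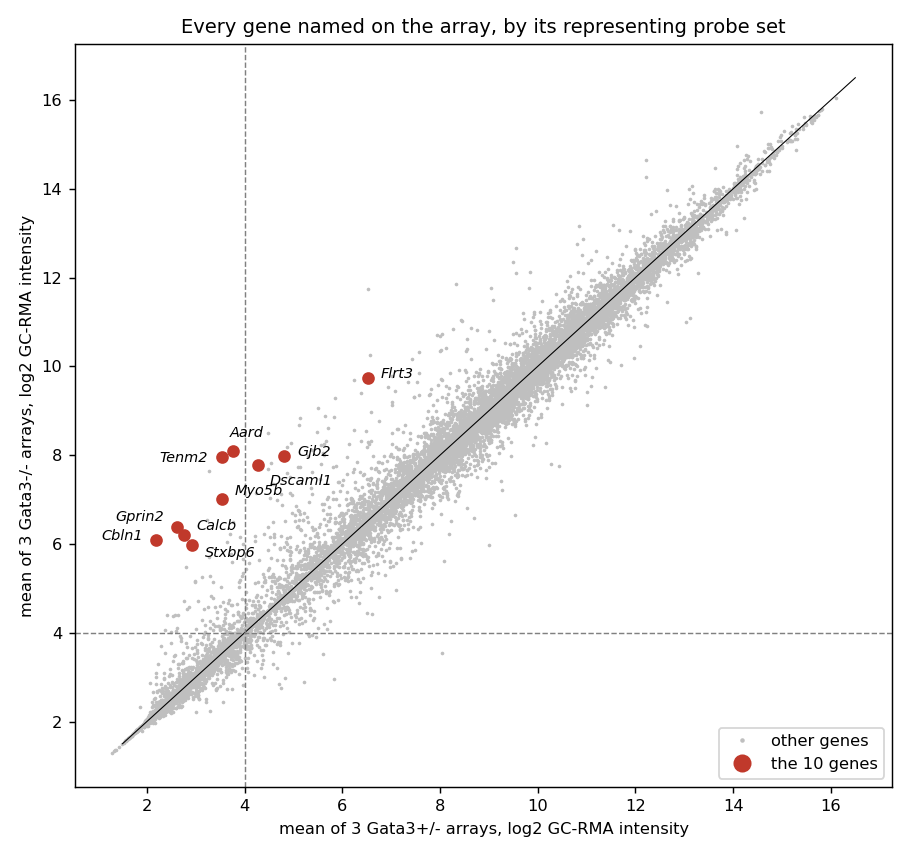
Mean of 3 Gata3-/- arrays (vertical axis) against mean of 3 Gata3+/- arrays (horizontal axis), both log2 GC-RMA intensity, for every gene named on the array. Dashed lines mark the floor at 4 and the solid line marks equality. The 10 genes (red) lie 3.06 to 4.41 above equality, most of them left of the floor on the horizontal axis.

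Among the adhesion genes, Tenm2 encodes teneurin-2, a large membrane protein of synapses. Its brightest probe set, 1457273_at, read 8.78, 6.88 and 8.22 on Gata3-/- arrays, against 3.19, 2.93 and 4.51 on Gata3+/- arrays. Only Gata3+/- array 3 was over the floor, and the fitted difference was 4.41 (SE 0.62). The 3 other Tenm2 probe sets stayed under the floor on all 6 arrays. One of those, 1420718_at, averaged 3.53 ± 0.27 over Gata3-/- arrays, against 3.12 ± 0.12 over Gata3+/- arrays (SD, n = 3 each).

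Flrt3 encodes a leucine-rich repeat membrane protein that binds latrophilins and UNC5 receptors. It was over the floor on every array of both genotypes, and so was not off in Gata3+/- cells. Probe set 1453102_at read 10.20, 9.25 and 9.75 on Gata3-/- arrays, against 7.10, 5.24 and 7.23 on Gata3+/- arrays, a difference of 3.21 (SE 0.59). The other probe set, 1429310_at, read 10.24, 9.22 and 9.73 on Gata3-/- arrays, against 6.78, 4.68 and 7.31 on Gata3+/- arrays, a difference of 3.48 (SE 0.72). Both probe sets thus gave the same order of arrays within Gata3-/-, and both were lowest on Gata3+/- array 2.

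Dscaml1 encodes an adhesion molecule of the immunoglobulin superfamily that takes part in self-avoidance of neurites. Probe set 1441706_at read 8.25, 7.25 and 7.84 on Gata3-/- arrays, against 5.25, 3.22 and 4.38 on Gata3+/- arrays. Gata3+/- arrays 1 and 3 were over the floor, and the difference was 3.50 (SE 0.55). Of the 4 other probe sets, 1427392_at reached the floor only on Gata3-/- array 1, with 4.89, 2.33 and 3.84 on Gata3-/- arrays and 2.08 to 2.09 on Gata3+/- arrays. The remaining 3 stayed between 2.14 and 2.41 on all arrays.

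Most relatives of these adhesion genes stayed under the floor, whereas the latrophilin genes Adgrl1, Adgrl2 and Adgrl3 were over it on every array. Of 12 other genes of the teneurin, latrophilin, FLRT and UNC5 families, 7 never reached the floor, including Tenm1, Tenm3, Tenm4 and Flrt1. Among the 4 tested, the latrophilin gene Adgrl1 fell by 0.75 to 5.05, 5.25 and 5.08 on Gata3-/- arrays, against 5.68, 5.95 and 5.99 on Gata3+/- arrays (SE 0.11, limma adjusted p = 0.0363). For the latrophilin genes Adgrl2 and Adgrl3 the limma difference was 0.52 with an adjusted p of 0.308 and 0.49 with an adjusted p of 0.423. All 8 genes listed as relatives of Dscaml1, among them Dscam and L1cam, stayed under the floor on every array.

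The stretch before the annotated start of Tenm2, Flrt3 and Stxbp6 is printed here because GATA3 binds a known short motif. The 10 genes share their direction of difference, but the selection fixed it. Of the 10 genes, 5 had a start in the RefSeq promoter table (GRCm38.p6), and the 250 bases before it were searched on both strands for GATA with A or T before it and A or G after it, which makes 4 forms of the GATA motif, counted also where they overlap. Matches are in capitals. Every stretch with a match is printed, whereas those of Gjb2 and Gprin2, without a match, are not. All 3 printed genes lie on the minus strand, and each sequence runs 5′ to 3′ towards the start.
Tenm2, chr11:36944242-36944491: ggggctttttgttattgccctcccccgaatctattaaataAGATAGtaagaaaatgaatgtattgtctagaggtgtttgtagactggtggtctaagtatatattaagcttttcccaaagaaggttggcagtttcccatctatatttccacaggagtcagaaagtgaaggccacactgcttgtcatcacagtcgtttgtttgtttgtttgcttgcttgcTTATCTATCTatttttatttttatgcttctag
Flrt3, chr2:140671477-140671726: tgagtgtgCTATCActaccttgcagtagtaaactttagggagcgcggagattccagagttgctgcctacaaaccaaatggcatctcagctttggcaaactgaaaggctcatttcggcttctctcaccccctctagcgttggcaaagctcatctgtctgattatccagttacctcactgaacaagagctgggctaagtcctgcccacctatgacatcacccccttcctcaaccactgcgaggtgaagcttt
Stxbp6, chr12:45074484-45074733: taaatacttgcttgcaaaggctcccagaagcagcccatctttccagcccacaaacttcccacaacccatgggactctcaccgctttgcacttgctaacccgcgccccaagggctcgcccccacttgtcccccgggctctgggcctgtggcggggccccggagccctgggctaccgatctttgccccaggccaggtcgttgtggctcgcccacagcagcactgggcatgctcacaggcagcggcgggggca

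Tenm2 held 3 matches, whose first bases lie 210, 32 and 28 bases before the start, and the last 2 overlap. Flrt3 held 1, on the reverse strand, whose first base lies 242 bases before the start. Stxbp6, Gjb2 and Gprin2 held none. Of all promoters listed there, 32851 in number, 26.5% held at least 1 match, and 2 of the 5 available for the 10 genes did. The windows differ in base composition, with 37.2% G and C in Tenm2, 50% in Flrt3 and 65.2% in Stxbp6. Binding and the start sites used in these cells were not measured, so a match is a run of letters and not a site.

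Among the secreted proteins, Cbln1 encodes cerebellin-1, an organizer of cerebellar synapses. Probe set 1423286_at read 7.10, 4.83 and 6.35 on Gata3-/- arrays, against 2.18, 1.93 and 2.43 on Gata3+/- arrays. All 3 Gata3+/- values lay under the floor, so on this probe set the Gata3-/- mean was at least 4.27-fold higher, taking the floor as the Gata3+/- level. The fitted difference was 3.91 (SE 0.58). A second probe set, 1423287_at, read 5.46, 2.47 and 4.50 on Gata3-/- arrays and 2.12 to 2.13 on Gata3+/- arrays, with array 2 again the lowest of the Gata3-/- arrays. Its Gata3-/- mean was 1.57-fold over the floor, with the value under the floor raised to it. Another, 1423288_s_at, stayed at 2.15 to 2.16 throughout. The 6 cerebellin, neurexin and delta receptor genes that were named on the array never reached the floor.

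Calcb encodes a calcitonin gene-related peptide, a vasodilator released by sensory neurons. Its only probe set, 1422639_at, read 7.27, 4.85 and 6.43 on Gata3-/- arrays, against 2.96, 2.60 and 2.71 on Gata3+/- arrays. No Gata3+/- array reached the floor, and the Gata3-/- mean of this probe set was at least 4.55-fold higher (fitted difference 3.43, SE 0.60). Whether this probe set also detects the close paralog Calca was not tested. The receptor for the peptide is formed by Calcrl with Ramp1, and both were present in both genotypes. Calcrl read 9.36, 9.11 and 9.60 on Gata3-/- arrays, against 8.61, 8.61 and 8.75 on Gata3+/- arrays (limma adjusted p = 0.0539). Ramp1 read 9.27, 10.02 and 9.03 on Gata3-/- arrays, against 10.56, 11.06 and 10.41 on Gata3+/- arrays (limma adjusted p = 0.0806). Ramp3, which pairs with Calcrl in an adrenomedullin receptor, read 12.96, 12.14 and 12.89 on Gata3-/- arrays, against 10.50, 7.38 and 10.78 on Gata3+/- arrays. Every Gata3-/- array lay above every Gata3+/- array for Calcrl and Ramp3 and below for Ramp1, but none of the 3 passed the threshold (limma adjusted p = 0.122 for Ramp3). Over all genes tested, 16.9% lay above and 16.7% below in this way. In the fourth tested gene of the list, the adrenomedullin gene Adm, the groups overlapped, with 7.38, 6.62 and 7.96 on Gata3-/- arrays and 7.38, 3.45 and 7.14 on Gata3+/- arrays (limma adjusted p = 0.536).

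Gjb2, a connexin gene of epithelia and the inner ear, has 1 probe set. It read 8.53, 7.58 and 7.85 on Gata3-/- arrays, against 5.35, 3.57 and 5.51 on Gata3+/- arrays, where array 2 alone was under the floor (difference 3.17, SE 0.57). Of 10 other connexin and pannexin genes named on the array, 7 never reached the floor, and none of the 3 tested passed with limma, 0 of them at an unadjusted p under 0.05 (differences -1.17 for Gjc1, 0.15 for Panx1 and 0.72 for Gja1).

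Myo5b encodes a myosin motor that moves recycling endosomes and, in gut epithelium, supports the apical membrane. Probe set 1452298_a_at read 7.77, 6.33 and 6.95 on Gata3-/- arrays, against 3.73, 2.66 and 4.23 on Gata3+/- arrays (difference 3.48, SE 0.52). Only Gata3+/- array 3 was over the floor. The 2 other probe sets stayed between 2.20 and 2.54 on all arrays. The related motor gene Myo5a read 10.27, 9.71 and 10.31 on Gata3-/- arrays, against 10.40, 10.42 and 10.48 on Gata3+/- arrays, and Myo5c never reached the floor. Of 8 tested genes of class V myosins and recycling endosomes none passed with limma (2 at an unadjusted p under 0.05), and their median difference was -0.06. Rab11a, the endosomal GTPase that binds the motor, had a difference of -0.05 (SE 0.09).

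Stxbp6 encodes amisyn, a SNARE-binding protein that restrains vesicle fusion. Both of its probe sets showed the pattern. Probe set 1425749_at read 6.11, 5.62 and 6.23 on Gata3-/- arrays, against 2.83, 2.49 and 3.44 on Gata3+/- arrays, at least 3.96-fold higher (fitted difference 3.06, SE 0.28). Probe set 1435396_at read 5.55, 6.02 and 5.81 on Gata3-/- arrays, against 2.71, 2.34 and 4.05 on Gata3+/- arrays (difference 2.75, SE 0.45). On the second, array 2 was the highest of the Gata3-/- arrays, unlike the first. Of 10 tested SNARE and syntaxin-binding genes, Vamp8, a SNARE of endosomes and secretory granules, rose by 0.60 (SE 0.09, limma adjusted p = 0.0370) and 9 did not pass. Their median difference was 0.18.

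Gprin2 encodes a protein named for G protein-regulated neurite outgrowth. Its probe set, 1443997_at, read 6.70, 5.70 and 6.77 on Gata3-/- arrays, against 2.25, 2.26 and 3.32 on Gata3+/- arrays, at least 5.25-fold higher (fitted difference 3.78, SE 0.42). Gprin1 and Gprin3 never reached the floor, while Gnai2, a G protein subunit gene of blood cells, had a difference of -0.01 (SE 0.14). Aard, a gene for a protein rich in alanine and arginine, read 8.86, 7.11 and 8.29 on Gata3-/- arrays, against 3.71, 2.48 and 5.13 on Gata3+/- arrays, of which array 3 was over the floor (difference 4.32, SE 0.77). Its Gata3+/- arrays spread widely, with an SD of 1.33.

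Across the 23 probe sets of the 10 genes, 12 were tested, 2 reached the floor on 1 or 2 arrays only, and 9 were under it on all 6. Of the 12 tested, 11 were called higher, where 4.37% of all probe sets tested were called in either direction. The other was 1429310_at of Flrt3. These values chose the genes, so the count adds no support. The spread within a genotype was large for these genes. The SD had a median of 0.66 over Gata3-/- arrays and 0.82 over Gata3+/- arrays, against 0.14 and 0.13 over all genes tested.

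The spread had a common shape. Array 2 was the lowest Gata3-/- array for all 10 genes and the lowest Gata3+/- array for 9, Gprin2 being the exception with 2.26 on array 2 and 2.25 on array 1. Over all genes tested, 22.5% were lowest on array 2 in both genotypes, and 30.2% of the 295 genes called higher were. Gata3-/- array 1 was highest for 8 of the 10 genes and Gata3+/- array 3 for 8. Between arrays of the same number, the differences were 3.00 to 5.59 for number 1, 2.25 to 4.63 for number 2 and 2.34 to 3.92 for number 3. Without both arrays numbered 2 the fitted differences ran from 2.76 to 4.65, and none of the 10 was called (limma adjusted p from 0.0574 to 0.102, 10 at an unadjusted p under 0.05). In that fit 3543 of the 20102 probe sets tested stood at an unadjusted limma p under 0.05.

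Markers of mature dendritic cells, antigen-presenting cells that have been activated, were higher on Gata3-/- arrays and lowest on array 2 of both genotypes. So were 9 of the 10 genes. The list of markers was chosen with earlier results of these data known. Of 12 listed genes, 11 were named on the array, and all 11 were tested. Il12b, which encodes an IL-12 subunit, rose to 9.20, 8.44 and 8.86 on Gata3-/- arrays, against 5.74, 4.05 and 5.60 on Gata3+/- arrays (difference 3.70, SE 0.49, limma adjusted p = 0.0335). Cd83, a surface marker of mature dendritic cells, rose by 1.42 (SE 0.24, limma adjusted p = 0.0407) and Zbtb46, a transcription factor of conventional dendritic cells, by 1.89 (SE 0.35, limma adjusted p = 0.0485). The other 8 did not pass, and 2.86% of all genes tested were called higher. The median difference was 2.06, against -0.02 over all genes tested. The groups of 11 of 11 genes did not overlap, with Gata3-/- above Gata3+/-, as was so for 16.9% of all genes tested.

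The markers that did not pass ranged widely in level. The chemokine gene Ccl17 had the lowest Gata3+/- mean among them and read 9.94, 7.22 and 9.45 on Gata3-/- arrays, against 5.60, 4.24 and 7.10 on Gata3+/- arrays (limma adjusted p = 0.125). Its value on Gata3+/- array 2 was close to the floor. Ccr7, the chemokine receptor that guides mature dendritic cells to lymph nodes, read 14.83, 14.35 and 14.74 on Gata3-/- arrays, against 13.10, 10.62 and 12.95 on Gata3+/- arrays (limma adjusted p = 0.108). Fscn1, an actin-bundling protein of mature dendritic cells, read 15.82, 15.51 and 15.87 on Gata3-/- arrays, against 14.99, 13.71 and 15.00 on Gata3+/- arrays (limma adjusted p = 0.137). The chemokine gene Ccl22 read 14.47, 13.85 and 14.50 on Gata3-/- arrays, against 13.03, 10.51 and 13.11 on Gata3+/- arrays (limma adjusted p = 0.172). Array 2 was the lowest in both genotypes for 11 of the 11 genes, against 22.5% of all genes tested. From highest to lowest, 6 of the 10 genes ran 1, 3, 2 over Gata3-/- arrays and 3, 1, 2 over Gata3+/- arrays. That order is the one that most of the 10 genes showed, so their count adds no support. It held for 4 of these 11 markers and 8.48% of all genes tested. Of other lists, 2 of 10 tested blood cell markers and 1 of 14 stromal markers had it. For epithelial and neural markers it was 1 of 7 and 0 of 5. The mean level of the list ran from 11.12 to 11.85 on Gata3-/- arrays and from 8.40 to 10.04 on Gata3+/- arrays, and no marker was under the floor. The part of these cells in the levels of the 10 genes was not tested.

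**Figure D3:**
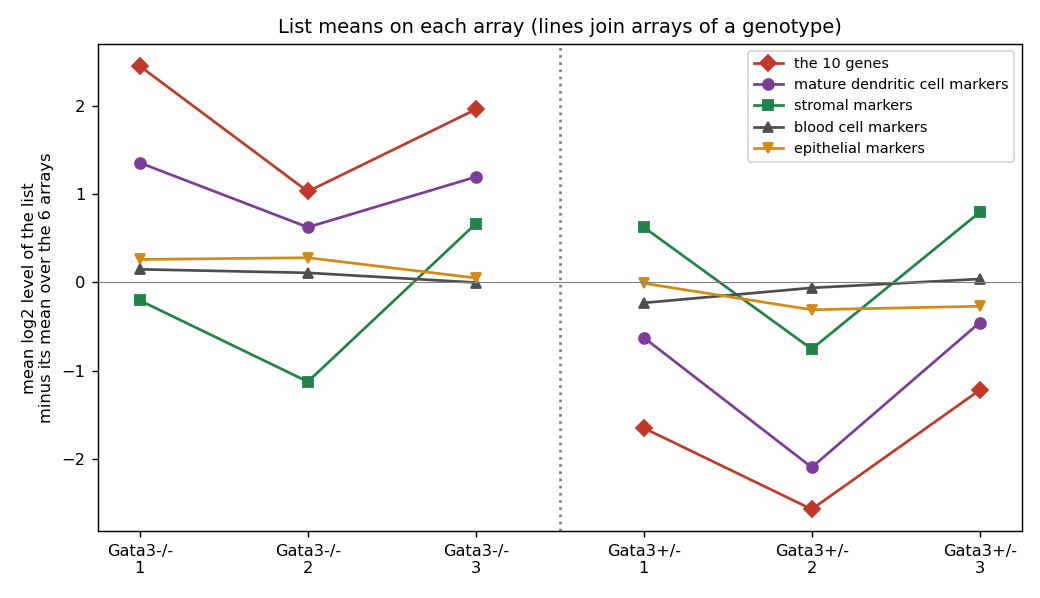
Mean log2 level of the tested genes of each list on each array, minus the mean of that list over the 6 arrays, with Gata3-/- arrays 1 to 3 on the left and Gata3+/- arrays 1 to 3 on the right. The 10 genes and the mature dendritic cell markers are higher on the Gata3-/- side and dip at array 2 in both genotypes. Stromal markers dip at array 2 but are not higher on the Gata3-/- side, and blood cell markers stay nearly flat.

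Stromal genes also tended to be lowest on array 2, but none of them was called between the genotypes. Of 14 tested, 11 were lowest on array 2 in both genotypes, none passed with limma (1 at an unadjusted p under 0.05), and their median difference was -0.51. That median rested on single arrays, being 0.02 without Gata3-/- replicate 2, -0.81 without Gata3-/- replicate 3, -0.57 without Gata3-/- replicate 1, -0.33 without Gata3+/- replicate 1, -0.89 without Gata3+/- replicate 2 and -0.25 without Gata3+/- replicate 3. Collagen gene Col1a2 read 10.54, 8.93 and 11.87 on Gata3-/- arrays, against 11.71, 9.73 and 11.95 on Gata3+/- arrays, and the fibroblast markers Lum and Dcn never reached the floor. Blood cell markers had a median difference of -0.05 over 10 genes, of which the stem cell factor receptor gene Kit rose by 0.96 (SE 0.18, limma adjusted p = 0.0477).

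Among the neural markers only 5 of 21 were tested, with a median difference of 0.00. The neurofilament gene Nefm rose to 5.32, 4.79 and 5.36 on Gata3-/- arrays, against 2.85, 2.85 and 3.28 on Gata3+/- arrays (difference 2.16, limma adjusted p = 0.0281). Nefl, the light neurofilament chain, read 7.42, 5.07 and 7.16 on Gata3-/- arrays, against 3.76, 2.14 and 3.75 on Gata3+/- arrays, and all 3 Gata3+/- values were under the floor (limma adjusted p = 0.0705). Nes, an intermediate filament of neural progenitors and other cells, had lower values without Gata3, with 7.57, 6.26 and 5.94 on Gata3-/- arrays and 8.88, 8.85 and 8.33 on Gata3+/- arrays (limma adjusted p = 0.0614).

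Among the epithelial markers 7 of 22 were tested, with a median difference of 0.45. Epcam, an epithelial adhesion molecule also found on some dendritic cells, rose to 6.78, 5.91 and 5.97 on Gata3-/- arrays, against 4.59, 4.50 and 4.70 on Gata3+/- arrays (difference 1.62, limma adjusted p = 0.0363). Cdh1, the epithelial cadherin, read 9.0, 7.12 and 7.25 on Gata3-/- arrays, against 6.33, 4.78 and 5.58 on Gata3+/- arrays (limma adjusted p = 0.108). Krt8, a keratin of simple epithelia, read 4.46, 5.74 and 4.86 on Gata3-/- arrays, against 7.20, 6.25 and 6.31 on Gata3+/- arrays (limma adjusted p = 0.0903). Of other cell types that embryonic stem cells can give, 7 of 8 endoderm markers and 6 of 12 pluripotency markers, Pou5f1 among them, never reached the floor. The 3 tested pluripotency markers did not pass (0 at an unadjusted p under 0.05). The other 3 reached the floor on Gata3+/- arrays only and were not tested. Tdgf1 read 2.37, 3.26 and 3.31 on Gata3-/- arrays, against 5.83, 5.19 and 3.47 on Gata3+/- arrays, and Nanog and Lin28a were over the floor on Gata3+/- array 1 alone, at 4.70 and 4.31. The exception among endoderm genes, Afp, read 10, 10.27 and 10.48 on Gata3-/- arrays, against 9.30, 8.81 and 9.45 on Gata3+/- arrays (limma adjusted p = 0.0533).

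**Figure D4:**
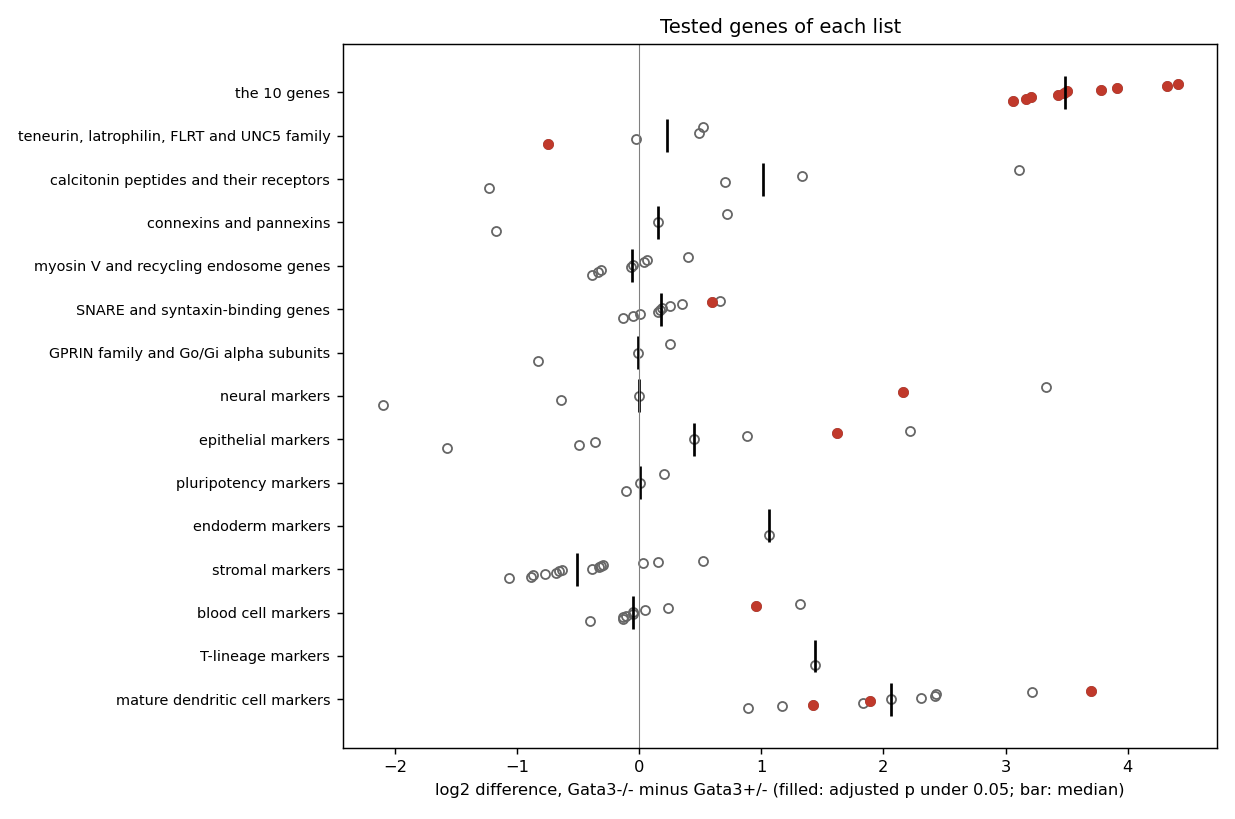
Log2 difference, Gata3-/- minus Gata3+/-, of each tested gene, by list. Filled points have a limma adjusted p under 0.05 and bars are list medians. The mature dendritic cell markers, with a median of 2.06, are all positive, while neural and epithelial markers lie on both sides of 0.

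The 10 genes lie on 9 chromosomes, with Gjb2 and Gprin2 both on chromosome 14. Most tested genes next to them had small differences. Over the 5 nearest tested genes on each side, 100 in all, the median difference was 0.08, and 8 rose and 1 fell with limma, where 2.86% of all genes tested were called higher and 2.41% lower. Tenm2 lies on chromosome 11, whose 885 other tested genes had a median difference of 0.33. The difference of Tenm2 above that median was 4.09. Its neighbours Mat2b, which rose by 0.45 (limma adjusted p = 0.0370), and Rars, with 0.29 (limma adjusted p = 0.191), lay near that median. Ramp3, Il12b and Ccr7 are on chromosome 11 as well. On the other chromosomes of the 10 genes the median ran from -0.06 to 0.10. Why chromosome 11 differed was not tested. Around Gjb2 the median of 10 neighbours was 0.45, and the nearest on 1 side, Zmym2, rose by 0.52 (limma adjusted p = 0.0349), against 3.17 for Gjb2 itself.

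Only around Stxbp6 and Aard did a neighbour differ by more than 1.5 in log2 value. The nearest tested genes to Stxbp6 were Nrcam, a neuronal adhesion gene, which rose to 6.56, 4.82 and 5.76 on Gata3-/- arrays, against 3.41, 3.22 and 3.20 on Gata3+/- arrays (difference 2.43, limma adjusted p = 0.0443), and Prkd1, a kinase gene, with a difference of 1.89 (limma adjusted p = 0.0691). Near Aard, Ccn3 read 12.60, 10.12 and 12.83 on Gata3-/- arrays, against 8.39, 5.98 and 10.62 on Gata3+/- arrays (limma adjusted p = 0.191), and Tnfrsf11b, the decoy receptor osteoprotegerin, had a difference of 2.16 (limma adjusted p = 0.282). The genes on either side of Aard, Rad21 and Med30, had differences of 0.06 and 0.08.

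**Figure D5:**
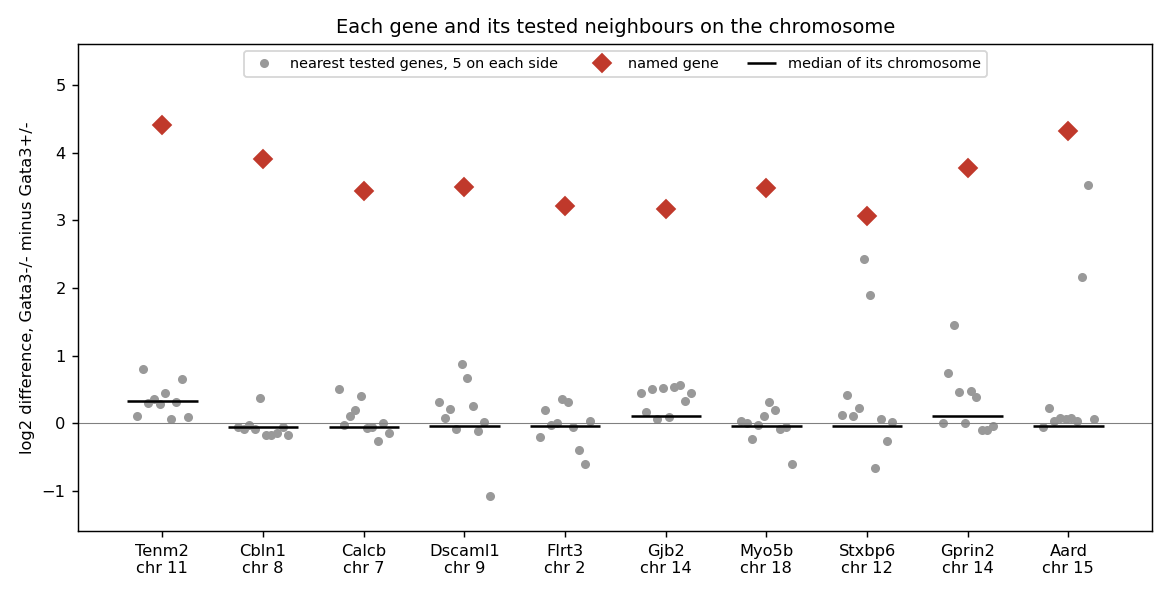
Log2 difference, Gata3-/- minus Gata3+/-, of each of the 10 genes (red diamonds), of the 5 nearest tested genes on each side (grey points) and the median of the chromosome (bars). The 10 genes lie between 3.06 and 4.41, while their neighbours have a median of 0.08 and reach 3.52 near Aard.

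The strict form of the pattern, under the floor on all Gata3+/- arrays and at or over it on all Gata3-/- arrays, held for 24 of 18193 named genes (0.132%). The mirror form, off in Gata3-/- and on in Gata3+/-, held for 7 genes (0.0385%). Of the 10 genes 4 met the strict form, namely Cbln1, Calcb, Stxbp6 and Gprin2, and 20 other genes did. Each gene was read on its brightest probe set, and the second tested probe set of Stxbp6 did not meet it, with 4.05 on Gata3+/- array 3. The gap of Jchain, an immunoglobulin joining chain gene, was 2.16, with 7.36, 10 and 5.54 on Gata3-/- arrays and 3.07 to 3.38 on Gata3+/- arrays, and here array 2 was the highest Gata3-/- array. The next 9 by gap, from 1.5 to 1.18, were Nefm, Lpar3, Pla1a, Dkk2, Nrcam, Ppp1r14a, Nefl, Egf and H2-Q5. These include 2 neurofilament chains, a neuronal adhesion gene, the receptor gene Lpar3 for lysophosphatidic acid, the Wnt antagonist Dkk2 and the growth factor Egf. Of the 20 others, 7 were lowest on array 2 in both genotypes, as were 22.5% of all genes tested. In the mirror form the widest gap was 3.69, for Siglech, a receptor of plasmacytoid dendritic cells, with 3.76, 3.81 and 3.04 on Gata3-/- arrays and 7.59, 9.02 and 7.50 on Gata3+/- arrays. It was followed by Flt1, Cd28, Ighv14-2 and Rasl11b, with gaps from 1.87 to 0.69.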

How the data were processed

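The authors deposited linear intensities of 45101 probe sets on each of 6 arrays, which per the labels came from GC-RMA, which corrects background from probe sequence and normalizes between arrays. The submitters' processing notes name GCOS, and no source used here gives versions or settings. Here the log2 was taken, 64 control probe sets were left out, and a probe set was tested when it reached 4 (intensity 16) on at least 3 arrays, which left 20102. The number of arrays limits the precision.

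Of the probe sets, 34958 had 1 gene symbol in the platform annotation, 932 several and 9211 were not listed; 34754 matched the RefSeq table of GRCm38.p6, which gave gene order, and 0 symbols changed. A gene was represented by its brightest tested probe set (10302 genes), otherwise by its brightest. Differences were fitted in R 4.3.3 by limma 3.58.1 (eBayes after lmFit, two-sided tests, Benjamini-Hochberg over all probe sets tested, threshold 0.05). The fit was checked on data simulated with independent noise on each array, so deviations shared between arrays were not covered. A fold given as "at least" sets the Gata3-/- mean against the floor.

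The 10 genes and all lists were chosen with earlier results of these data known. Named were all 10 genes, the 10 others with the widest gap in the strict pattern and the 5 in its mirror, list members that passed and up to 3 bright ones, and nearest neighbours. Other genes are examples chosen after their values were seen. Alternatives were other filters, floors, normalizations and variance models, the replicate block, probe set averages and leaving out arrays. The fit without both arrays numbered 2 was chosen after seeing the data. P-values reflect only how these arrays vary, which may be technical.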

Additional observations from a re-analysis of the deposited data

How the results depend on the processing

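The sign of the difference stayed positive for all 10 genes under every alternative run, which carries little weight because they were chosen on these arrays. Their calls and the 878 probe sets called overall depended on the setting. Leaving out each array in turn left 0 of the 10 called (10 at an unadjusted limma p under 0.05 each time) and 0 to 9 probe sets. Of all 20102 probe sets tested, 3578 to 4622 stood at that unadjusted p in these fits. Without both arrays numbered 2 it was 0 of the 10 and 4 probe sets, and without a filter 0 and 166. The stricter filter kept 6 of the 10 in the fit and called those 6. Of those, all but Flrt3 were under 6 on every Gata3+/- array, so they passed it through Gata3-/- arrays alone. The brightest probe sets of Cbln1, Calcb, Stxbp6 and Gprin2 passed the main filter in the same way. Those of Tenm2, Myo5b and Aard were over the floor on 1 Gata3+/- array, and those of Dscaml1 and Gjb2 on 2. The main filter asks for 3 arrays, so these passed it only with Gata3-/- arrays. The calls of all these genes under these filters thus add no support. Array weights gave 2075 probe sets and the variance trend with robust eBayes 1349, both with all 10 genes called. Raising values under the floor to it gave differences of 1.98 to 3.79. The strict pattern held for 4 of the 10 genes and 24 of all genes. With the floor at a log2 value of 3 it held for 2 of the 10, and with the floor at 6 for 44 of all genes. Leaving out an array gave 4 to 7 of the 10, the 7 being without Gata3+/- replicate 3, and 26 to 46 of all genes. Without both arrays numbered 2 it held for 48 of all genes.

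List medians moved with the filter or with the arrays used in these cases, beside those of the stromal markers given above. With the filter at 6 they were 0.50 for teneurins and their partners, -1.37 for neural, 0.19 for epithelial and 0.20 for pluripotency markers. Those medians rest on 2, 2, 4 and 1 genes, against 4, 5, 7 and 3 in the main fit. Without a filter they were 0.00 for calcitonin peptides and for epithelial markers and -0.01 for recycling endosome genes, which stood at -0.01 also without both arrays numbered 2. The unfiltered medians rest on 7, 22 and 11 genes, against 4, 7 and 8 in the main fit. A changed filter thus changes which genes a median covers. Leaving out each array gave medians of -0.07 to 0.02 for recycling endosome genes, 0.15 to 0.27 for SNARE genes, 0.26 to 0.59 for epithelial markers and -0.09 to 0.01 for pluripotency markers. Other causes of these shifts were not tested.

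With the replicate block 498 probe sets were called, 295 of them also without it, and 9 of the 10 genes. For numbers 1, 2 and 3, the correlation of deviations from the genotype mean was 0.00501, 0.695 and 0.429. Between Gata3-/- array 3 and Gata3+/- array 1, which differ in number, it was 0.424. The labels give these arrays only a shared number, so no pairing is assumed. Whether arrays of the same number shared a source of variation was not tested. Signal near the floor limits the size of the differences, other than that of Flrt3, which was over the floor on all arrays.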
